A study of Homo sapiens with 6 samples.

Results

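Imprinted genes are transcribed mainly or only from the chromosome copy inherited from one parent. The choice is set by DNA methylation laid down in the egg or sperm at an imprinting control region, and these regions sit in clusters that hold both protein-coding genes and long noncoding RNAs. Many members act on growth of the fetus and placenta and on the developing brain, and imprints are known to shift in cultured human embryonic stem cells. The members here are 39 genes, taken as a list of known imprinted human genes whose symbol is a row of the deposited count table of 60664 genes. All 39 were found, each as 1 row. RNA counts do not tell the parental copies apart, so a change in level below says nothing of which copy was read.

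RNA with poly-A tails was sequenced from H7, an established line of human embryonic stem cells kept on Matrigel in mTeSR Plus. The groups were 3 libraries with the genotype label control and 3 with the label SAMD4A knockdown. SAMD4A binds RNA and is a mammalian relative of fly Smaug. The series asks about its part in self-renewal and lineage choice, and its text also calls the control wild type. The knockdown is described as 1 line, with the construct not given in the sources used here. No label says that replicates were separate cultures, so p-values measure only the spread between these libraries, which may be technical. Library totals ran from 19270688 to 21355171 counts, and the members took 0.380% to 0.398% of them. SAMD4A itself was at 52.2, 56.0 and 49.8 CPM in control and 27.4, 28.6 and 28.5 CPM in knockdown (counts per 1e+06 of the library, scaled by TMM factors, the scale of every level below). It fell by 0.90 on the log2 scale (SE 0.07, edgeR adjusted p = 8.96e-08). The 8 stem cell markers were all present, with a summed level of 7250 to 7388 CPM in control and 8761 to 9341 CPM in knockdown. Most of that rise is DNMT3B, described last. POU5F1 (0.19 ± 0.05, edgeR adjusted p = 0.0024), TDGF1 (0.24 ± 0.04, 0.000305) and L1TD1 (0.13 ± 0.04, 0.0214) were also higher. NANOG was lower (-0.25 ± 0.07, edgeR adjusted p = 0.0111), and SOX2, LIN28A and DPPA4 did not pass. Knockdown replicate 1 differed from replicates 2 and 3 in markers of early neural and mesendodermal tissue, and member results that turn on it are given with and without it.

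Of the 39 members, 29 passed the filter on low counts and 10 were too low to judge. Among the 29 tested, 18 passed the edgeR quasi-likelihood test at an adjusted p of 0.05 (62.1%), 7 higher and 11 lower in knockdown. The background was high: 51.7% of all 17258 tested genes passed, 26.1% higher and 25.6% lower, so the members' share lies near it. Control and knockdown libraries did not overlap in 19 of the 29 members, against 58.3% of all tested genes. The median log2 ratio of knockdown over control of the 29 was -0.07 and the median size 0.31, against -0.01 and 0.33 over all tested genes. Called changes of at least 2 fold were found in 5 of the 29 members, and in 1516 of all 17258 tested genes. Of the 5, MEG3, SLC22A18 and FAM50B were lower, and NDN and MAGEL2 were higher. Scaled by total counts only, the members split into 4 higher and 12 lower. That scaling moved the median over all genes to -0.17, and 2704 of them were called higher and 6410 lower, against 4503 and 4423 with TMM.

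**Figure D1:**
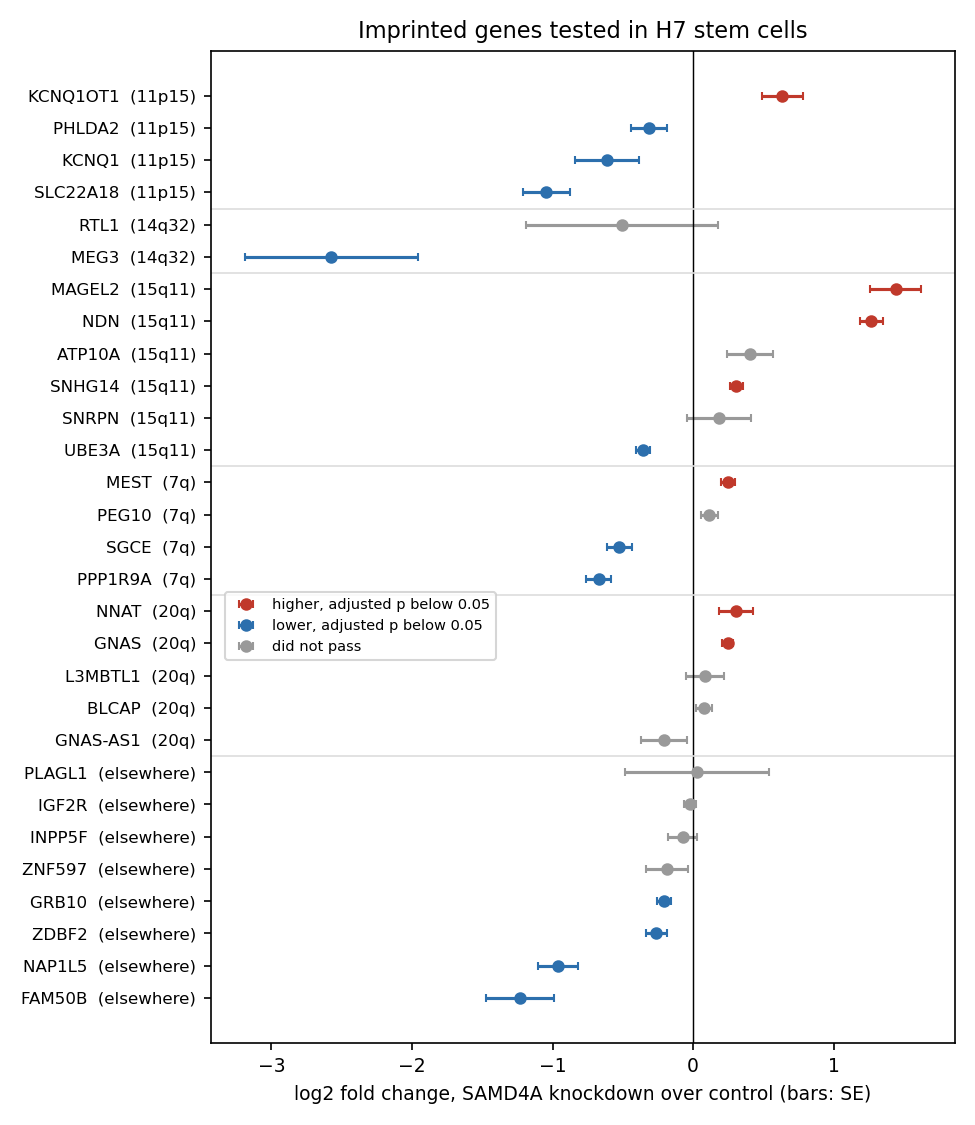
Log2 fold change (knockdown over control, x axis) of the 29 imprinted genes that could be tested, with bars for the standard error, grouped by cluster on the y axis. Red points (7) were higher and blue points (11) lower at an edgeR adjusted p below 0.05, and grey points did not pass.

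The start regions of 4 members are shown because they bear on the clusters described below: SNURF, whose start lies at the imprinting centre of 15q11, NDN and MAGEL2, which rose in knockdown, and MEG3, which fell. Each is RefSeq sequence of GRCh38.p14 from 250 bases before to 50 after the gene start, written 5′ to 3′ on the gene's strand, with CpG dinucleotides, the sites of DNA methylation, in capitals. They lie at chr15:24954737-24955036 on the plus strand (SNURF), chr15:23687256-23687555 on the minus strand (NDN), chr15:23647818-23648117 on the minus strand (MAGEL2) and chr14:100825858-100826157 on the plus strand (MEG3).
SNURF: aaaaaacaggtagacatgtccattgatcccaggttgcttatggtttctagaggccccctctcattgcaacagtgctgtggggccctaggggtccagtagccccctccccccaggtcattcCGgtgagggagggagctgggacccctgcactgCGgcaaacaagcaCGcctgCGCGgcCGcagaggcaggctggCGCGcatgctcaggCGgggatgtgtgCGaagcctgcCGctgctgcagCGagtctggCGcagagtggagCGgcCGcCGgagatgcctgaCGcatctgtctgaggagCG
NDN: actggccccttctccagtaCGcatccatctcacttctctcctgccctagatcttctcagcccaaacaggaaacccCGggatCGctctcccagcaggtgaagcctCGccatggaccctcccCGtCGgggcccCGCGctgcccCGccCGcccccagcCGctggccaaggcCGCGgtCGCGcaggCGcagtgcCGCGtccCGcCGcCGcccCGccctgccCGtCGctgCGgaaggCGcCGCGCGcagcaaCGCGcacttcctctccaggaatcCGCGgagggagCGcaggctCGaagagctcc
MAGEL2: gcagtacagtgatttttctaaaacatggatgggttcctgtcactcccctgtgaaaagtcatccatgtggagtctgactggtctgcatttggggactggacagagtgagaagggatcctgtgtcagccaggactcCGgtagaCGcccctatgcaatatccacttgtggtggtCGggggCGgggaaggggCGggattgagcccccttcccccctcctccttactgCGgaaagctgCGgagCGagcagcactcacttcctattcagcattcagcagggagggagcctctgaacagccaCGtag
MEG3: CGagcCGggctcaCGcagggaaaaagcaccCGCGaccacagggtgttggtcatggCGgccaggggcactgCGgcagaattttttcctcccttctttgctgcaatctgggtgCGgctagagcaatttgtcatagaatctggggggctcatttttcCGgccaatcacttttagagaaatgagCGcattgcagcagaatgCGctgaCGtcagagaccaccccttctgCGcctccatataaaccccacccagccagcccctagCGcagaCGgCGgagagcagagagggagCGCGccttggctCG
The NDN window holds 35 CpG and the MAGEL2 window 9, while SNURF and MEG3 hold 18 and 19. NDN and MAGEL2, neighbours that both rose, thus differ in the CpG content of these windows. The RefSeq start of MEG3 lies inside the span that the deposited table gives the gene.

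A window was in the RefSeq table for 27 of the 39 members. MEG8, IGF2, KCNQ1, KCNQ1OT1, PHLDA2, SLC22A18, PEG10, SGCE, NNAT, GNAS-AS1, PEG3 and ZIM2 were not matched. The median was 18 CpG per window over the 27 and 14 over all 35116 windows of the table. The letters TGCCGC, which are the core of the motif that the imprint-keeping zinc finger protein ZFP57 reads when methylated, were searched on both strands. They occurred in 12 of the 27 windows (44.4%) and in 16.7% of all windows. The motif holds a CpG itself: among windows with at least 18 CpG it occurred in 11 of 16 members and in 29.7% of 15612 windows. In the windows printed above it occurs 2 times in SNURF, 1 time in NDN, 1 time in MEG3 and 0 times in MAGEL2. A match describes the letters only. The windows follow RefSeq starts, which can lie away from the start of the counted gene. The SNHG14 window, chr15:24823358-24823657, lies outside the deposited span, which starts at 24978583. The GNAS window starts at 58888163, inside the deposited span that starts at 58839718.

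The 11p15 cluster holds IGF2, the fetal growth factor, and H19, the noncoding RNA beside it, in one domain, and KCNQ1OT1 with the genes it is known to silence on the paternal copy in the other. All 4 testable members passed the test, as did 51.7% of all tested genes and 8 of 11 neighbours, though the calls of PHLDA2 and KCNQ1 depend on the settings given below. KCNQ1OT1 (ENSG00000269821, chromosome 11, 2608328 to 2699994, GRCh38) rose, while KCNQ1, PHLDA2 and SLC22A18 fell. The noncoding KCNQ1OT1 was at 5.56, 4.63 and 5.63 CPM in control and 7.72, 8.91 and 7.99 CPM in knockdown, a log2 ratio of 0.64 ± 0.15 (SE, edgeR adjusted p = 0.0022). Every knockdown library was above every control library.

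SLC22A18, a membrane transporter gene (chromosome 11, 2899721 to 2925246), was at 9.03, 9.70 and 10.2 CPM in control and 5.93, 3.71 and 4.37 CPM in knockdown. It fell by 1.04 on the log2 scale (SE 0.17, edgeR adjusted p = 0.00010), with no overlap of the groups. KCNQ1, a potassium channel subunit, was at 4.09, 6.64 and 4.45 CPM in control and 2.49, 3.72 and 3.73 CPM in knockdown, a log2 ratio of -0.61 ± 0.23 (edgeR adjusted p = 0.036). KCNQ1 no longer passed when control replicate 2 was left out (-0.37, edgeR adjusted p = 0.245), when knockdown replicate 1 was (-0.44, 0.077) or with DESeq2 (adjusted p = 0.063). PHLDA2, which limits placental growth in mouse, was at 10.4, 9.25 and 9.65 CPM in control and 7.97, 8.40 and 7.18 CPM in knockdown. Its groups did not overlap, but its call at -0.32 ± 0.13 stood at an edgeR adjusted p = 0.0499 and was lost whichever library was left out (-0.25 to -0.36, edgeR adjusted p = 0.0535 to 0.177). The call was also lost with RLE factors (edgeR adjusted p = 0.0544), no low-count filter (0.11) and the replicate block (0.0719). DESeq2 (DESeq2 adjusted p = 0.138) and limma-voom (limma adjusted p = 0.0541) did not call the gene either. PHLDA2 reached -0.47 (edgeR adjusted p = 0.0058) with total counts only, which moved the median over all genes to -0.17. CDKN1C, an imprinted inhibitor of cell division from the same domain, did not pass at -0.03 ± 0.13 (edgeR adjusted p = 0.84).

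KCNQ1OT1 lies within KCNQ1 on the opposite strand over all of its 91667 bases, and with the strand setting of the counting not given in the sources used here, reads of the one and of unspliced RNA of the other cannot be told apart. KCNQ1 fell and KCNQ1OT1 rose in the same libraries, and the part of such reads in either change was not tested. Of the other imprinted genes of 11p15, NAP1L4 (0.35 ± 0.05, edgeR adjusted p = 1.2e-05), a histone chaperone, and CD81 (0.42 ± 0.05, 8.5e-06), a tetraspanin, were higher. They stood at 0.20 and 0.26 with total counts only. OSBPL5, picked after its values were seen, was also higher (0.48 ± 0.13, edgeR adjusted p = 0.0077) with no overlap. TSSC4, picked in the same way, did not pass (0.08 ± 0.08, edgeR adjusted p = 0.42). Of 11 tested genes within 500 kb of a member and outside the imprinted lists, 3 were higher and 5 lower. Of those with a symbol, picked after the values were seen, the phosphatase gene DUSP8 at -1.57 ± 0.14 and TSSC2 at 1.43 ± 0.06 were the lowest and the highest, both larger in size than any member's change there.

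In the IGF2 and H19 domain, H19 and IGF2 had almost no counts in either group. H19 (chromosome 11, 1995176 to 2001470) had 1, 4 and 0 counts in control and 0, 0 and 1 in knockdown. IGF2 had 4, 3 and 1 counts in control and 1 in each knockdown library. Both are too low to judge. Of the IGF2 exon bases in GENCODE 29, 73.7% also lie in exons of another gene on the same strand, with the treatment of shared reads not given in the sources used here. INS-IGF2, an overlapping gene, had a mean of 0.0 counts. A protein-coding gene without a symbol, which overlaps IGF2 over 12127 bases on the same strand, also had a mean of 0.0 counts. The part of shared reads in the low counts of IGF2 was not tested.

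**Figure D2:**
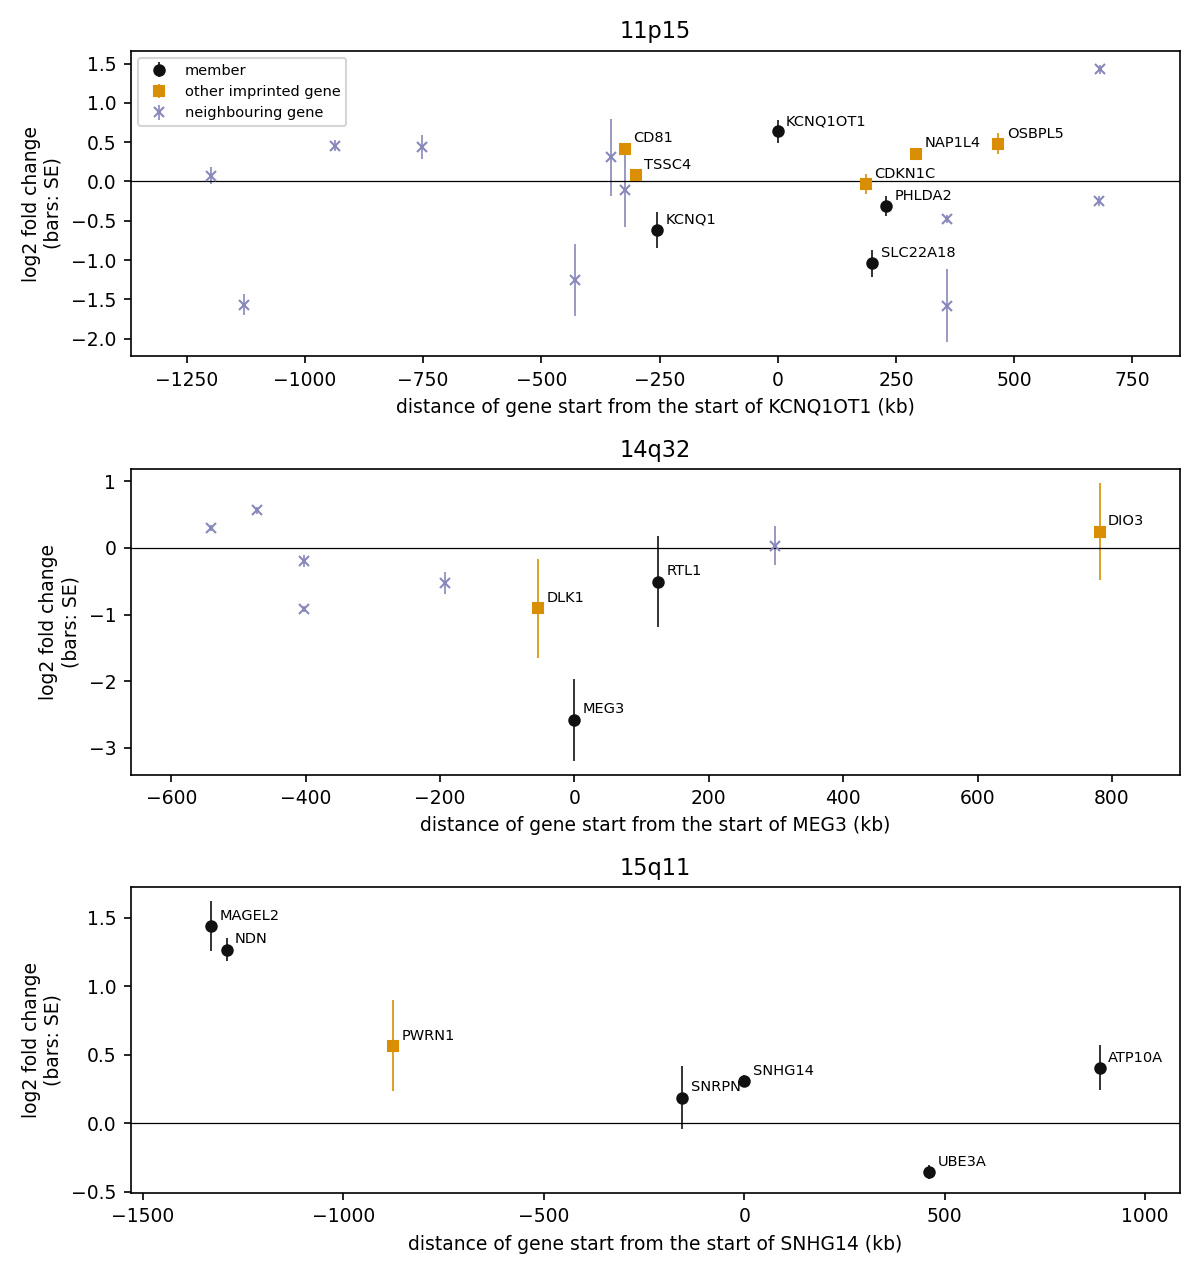
Log2 fold change (y axis, bars for the standard error) against the distance of each gene's start from the start of KCNQ1OT1, MEG3 or SNHG14 (x axis, kb) in the 11p15, 14q32 and 15q11 clusters. Black circles are members, orange squares other imprinted genes and blue crosses other tested genes within 500 kb of a member; KCNQ1OT1 lies above zero with KCNQ1, PHLDA2 and SLC22A18 below it, and NDN and MAGEL2 lie together at the top of 15q11.

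The 14q32 cluster pairs noncoding RNAs read from the maternal copy (MEG3, MEG8, MEG9) with protein-coding genes read from the paternal copy (DLK1, RTL1, DIO3). MEG3 loss is a known mark of aberrant imprinting in human pluripotent lines. MEG3 (ENSG00000214548, chromosome 14, 100779410 to 100861031) was low in control and lower in knockdown: 18, 16 and 19 counts in control and 6, 0 and 2 in knockdown, or 0.86, 0.79 and 0.90 CPM against 0.30, 0 and 0.11 CPM. Its log2 ratio was -2.58 ± 0.62 (edgeR adjusted p = 0.0026), and every knockdown library was below every control library. The call held under every alternative that tested the gene, but its size rests on few counts, with -3.86 without knockdown replicate 1 and -1.999 without knockdown replicate 2. MEG8 had 3 counts in knockdown replicate 1 and 0 elsewhere, MEG9 had at most 2 counts in a library, and both are too low to judge.

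RTL1, a retrotransposon-derived gene needed for the placenta in mouse, split the knockdown libraries. It had 16, 7 and 15 counts in control and 21, 1 and 3 in knockdown replicates 1, 2 and 3. It did not pass at -0.50 ± 0.68 (edgeR adjusted p = 0.56), and passed at -2.46 (edgeR adjusted p = 0.0050) without knockdown replicate 1. Its paternal partners split in the same way. DLK1, a transmembrane ligand, was at 52.9, 45.0 and 52.2 CPM in control and 75.7, 2.44 and 1.30 CPM in knockdown. DIO3, which inactivates thyroid hormone, was at 0.57, 0.59 and 0.43 CPM in control and 1.64, 0.10 and 0.11 CPM in knockdown. It did not pass with all libraries (0.25 ± 0.73, edgeR adjusted p = 0.798), and was at -2.26 (edgeR adjusted p = 0.0102) without knockdown replicate 1. The 3 paternal genes were thus highest in knockdown replicate 1 and lowest in replicates 2 and 3, whereas MEG3 was below control in all 3. DLK1 had a log2 ratio of -0.91 ± 0.74 (edgeR adjusted p = 0.33), and one of -4.72 (edgeR adjusted p = 2.3e-35) without knockdown replicate 1.

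Early neural markers moved between the same libraries. The summed level of the 8 neural markers was 26.8, 28.0 and 31.1 CPM in control and 34.0, 14.8 and 14.9 CPM in knockdown replicates 1, 2 and 3. PAX6, SOX1 and SIX3 were at 0 in knockdown replicate 2, while HESX1 went the other way, at 8.32, 12.9 and 12.8 CPM in knockdown against 5.73 to 6.05 CPM in control. The 6 mesendoderm markers summed to 3.40 to 3.69 CPM in control and to 10.3, 4.02 and 2.48 CPM in knockdown. In the knockdown group the 7 trophoblast or amnion markers summed to 6.82 to 9.18 CPM, against 9.56 to 13.3 CPM in control, and the 6 fibroblast markers to 286.5 to 314.3 CPM against 334.8 to 372.5 CPM, with DCN at 0 in all libraries. Single genes of these lists also differed between knockdown replicates 1, 2 and 3. GATA3 (1.49, 0.41 and 0.32 CPM) and COL3A1 (1.54, 0 and 0.11 CPM) were highest in replicate 1. KRT7 (4.83, 7.38 and 7.99 CPM) and COL1A1 (159.1, 183.3 and 177.2 CPM) were lowest in replicate 1. The part of all these markers in the results on RTL1, DLK1, DIO3 and PLAGL1 was not tested. Fewer cells of a type and less RNA per cell cannot be told apart in bulk libraries.

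**Figure D3:**
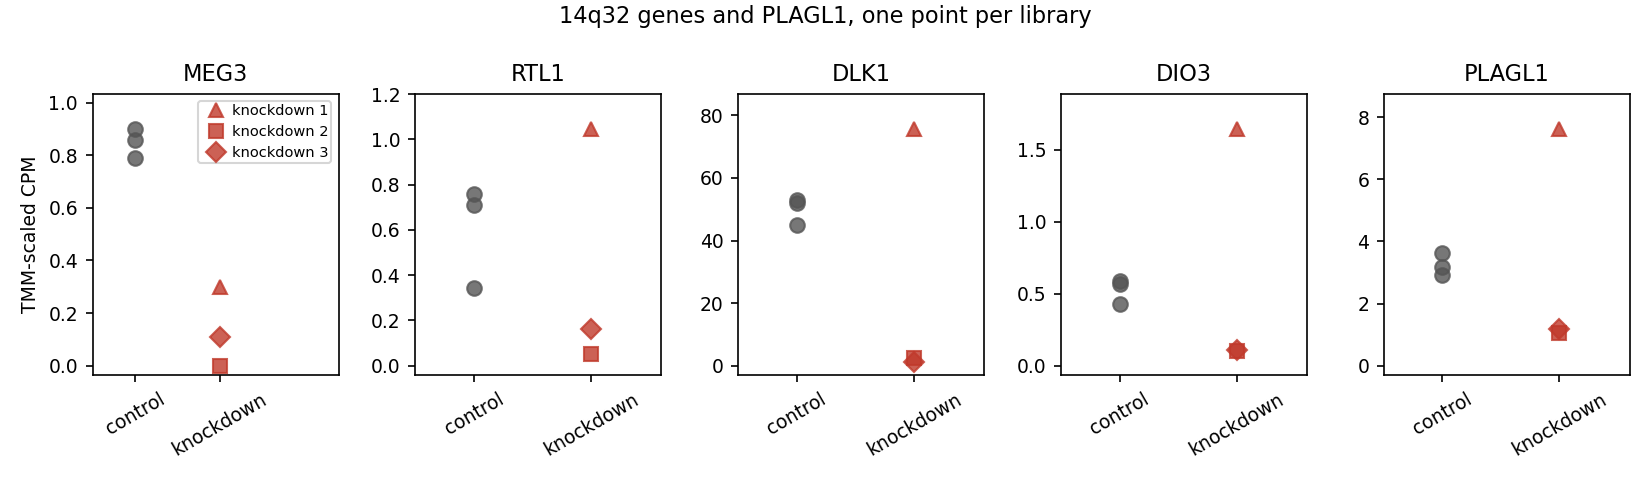
TMM-scaled CPM (y axis, its own range in each panel) of MEG3, RTL1, DLK1 and DIO3 from 14q32 and of PLAGL1, 1 point per library. Grey circles are the 3 control libraries and red symbols the 3 knockdown libraries; MEG3 was below control in all 3, and in the other panels knockdown replicate 1 lies above the control libraries and replicates 2 and 3 below them.

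Among tested genes, the 5 whose log2 CPM followed MEG3 most closely over the 6 libraries were TTC28, EVA1B, KDM6B, TAF15 and OARD1, with Pearson r from 0.996 to 0.999. These values share the group difference and the libraries, and are a description only. None of the 5 lies on chromosome 14. KDM6B, a histone demethylase, was at 27.6 to 28.9 CPM in control and 18.4, 9.06 and 12.7 CPM in knockdown. Of 6 tested neighbours within 500 kb of the 14q32 members, 2 were higher and 2 lower.

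The 15q11 cluster is the region of Prader-Willi syndrome, caused by loss of paternally read genes, and of Angelman syndrome, caused by loss of maternal UBE3A. Of 6 testable members, 3 rose and 1 fell (66.7%, against 51.7% of all tested genes). NDN (ENSG00000182636, chromosome 15, 23685400 to 23687305), which encodes the growth suppressor necdin, was at 16.3, 17.9 and 17.3 CPM in control and 39.7, 41.7 and 42.6 CPM in knockdown. It rose by 1.27 ± 0.08 on the log2 scale (edgeR adjusted p = 6.5e-09), with knockdown libraries close to each other and far above control. MAGEL2 (chromosome 15, 23643549 to 23647867), the neighbouring ubiquitin ligase regulator of the same MAGE family, was at 4.23, 4.33 and 4.54 CPM in control and 8.77, 11.9 and 15.1 CPM in knockdown, a log2 ratio of 1.44 ± 0.18 (edgeR adjusted p = 8.4e-06). The third gene of that end of the cluster, MKRN3, a brake on puberty, had 2 counts in control replicate 3 and 0 in the other libraries.

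SNHG14 (chromosome 15, 24978583 to 25420336), the long host RNA of many small nucleolar RNAs, held more counts than any other member. It was at 1330, 1365 and 1363 CPM in control and 1612, 1778 and 1637 CPM in knockdown, a log2 ratio of 0.31 ± 0.04 (edgeR adjusted p = 2.7e-05), and 0.15 (0.0094) with total counts only. In neurons the far end of this transcript runs against UBE3A and silences the paternal copy. UBE3A, a ubiquitin ligase, fell: it was at 140.3, 155.4 and 153.1 CPM in control and 115.3, 119.4 and 115.9 CPM in knockdown (-0.36 ± 0.05, edgeR adjusted p = 3.9e-05). The spans of the genes overlap on opposite strands over 86609 bases, so their reads cannot be told apart where they overlap without the strand setting. Of the exon bases in GENCODE 29, 1.5% for UBE3A and 0.5% for SNHG14 face exons on the other strand. Neither pair of groups overlapped.

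ATP10A, a lipid flippase whose imprinting varies between people, was at 10.7, 9.45 and 9.28 CPM in control and 9.21, 15.6 and 14.2 CPM in knockdown. It did not pass at 0.40 ± 0.16 (edgeR adjusted p = 0.0503), and passed at 0.61 (edgeR adjusted p = 3.4e-05) without knockdown replicate 1, which lay just below the lowest control library. SNRPN, a splicing protein gene, was at 6.13, 4.38 and 3.88 CPM in control and 4.78, 7.43 and 4.16 CPM in knockdown and did not pass (0.19 ± 0.23, edgeR adjusted p = 0.52). SNURF, read from the same transcript, had 3 to 10 counts and is too low to judge. Of the exon bases in GENCODE 29, 69.3% for SNURF and 33.6% for SNRPN lie in exons of another gene on the same strand. In the deposited coordinates SNURF lies within SNRPN, and the part of shared reads in these counts was not tested.

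On 7q, PEG10 and SGCE start from one shared region and run in opposite directions, and PPP1R9A lies beyond them. PEG10, another retrotransposon-derived gene with a placental role in mouse, was at 276.0, 271.4 and 294.9 CPM in control and 335.1, 283.5 and 293.7 CPM in knockdown. It did not pass (0.12 ± 0.06, edgeR adjusted p = 0.12), and it passed without knockdown replicate 2 (0.17, edgeR adjusted p = 0.034). SGCE, a membrane protein gene mutated in myoclonus dystonia, fell from 24.7, 27.5 and 26.9 CPM to 18.8, 19.1 and 17.0 CPM, a log2 ratio of -0.53 ± 0.09 (edgeR adjusted p = 0.00015). PPP1R9A, a neuronal actin-binding protein gene, fell from 32.1, 36.6 and 31.95 CPM to 21.4, 22.6 and 19.2 CPM (-0.67 ± 0.09, edgeR adjusted p = 1.8e-05). Both groups of values were apart in these 2 genes, while those of PEG10 overlapped. MEST, further along the arm, was at 198.9, 210.3 and 212.6 CPM in control and 237.8, 255.7 and 244.9 CPM in knockdown (0.25 ± 0.05, edgeR adjusted p = 0.00045). MEST did not pass when scaled by total counts only (0.09, edgeR adjusted p = 0.125). Among 9 tested neighbours of the 7q members, 1 was higher and 6 were lower.

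On 20q, GNAS (chromosome 20, 58839718 to 58911192), the stimulatory G protein subunit with several imprinted promoters, rose a little. It was at 730.0, 701.2 and 680.3 CPM in control and 835.2, 820.8 and 848.4 CPM in knockdown, with no overlap (0.25 ± 0.04, edgeR adjusted p = 0.00015). Scaling by total counts alone ended the GNAS call (0.09, edgeR adjusted p = 0.085). GNAS-AS1, the antisense RNA of that locus, did not pass (-0.21 ± 0.16, edgeR adjusted p = 0.31), and 43.1% of its exon bases face exons on the other strand. NNAT, a small membrane protein gene that lies inside BLCAP, was at 55.8, 48.7 and 50.7 CPM in control and 81.9, 54.2 and 55.4 CPM in knockdown. Its groups overlapped, and its call (0.30 ± 0.12, edgeR adjusted p = 0.047) rested on knockdown replicate 1, without which the value was 0.09 (edgeR adjusted p = 0.32). It was also lost without each control library in turn (0.26 to 0.36, edgeR adjusted p = 0.0655 to 0.16) and with total counts only (0.15, 0.33). BLCAP, its host gene (0.08 ± 0.06, edgeR adjusted p = 0.29), and L3MBTL1, a chromatin reader (0.09 ± 0.14, 0.615), did not pass.

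Outside these clusters 8 members were testable, 4 of them lower and 0 higher, a share of 50% against 51.7% of all tested genes. FAM50B, an intronless copy of an X-linked gene on chromosome 6, was at 3.04, 4.04 and 3.69 CPM in control and 1.74, 1.48 and 1.35 CPM in knockdown (-1.23 ± 0.24, edgeR adjusted p = 0.00051). NAP1L5, an intronless gene of the nucleosome assembly family, fell from 9.08, 9.20 and 9.89 CPM to 5.43, 4.53 and 4.48 CPM (-0.96 ± 0.14, edgeR adjusted p = 4.9e-05). The groups did not overlap in either gene. GRB10, an adaptor that damps insulin and growth factor signalling, changed by -0.21 ± 0.05 (edgeR adjusted p = 0.0028), and ZDBF2, a zinc finger gene, by -0.26 ± 0.08 (edgeR adjusted p = 0.0092). With total counts only they stood at -0.36 and -0.42, and ZDBF2 no longer passed once control replicate 2 was left out (-0.20, edgeR adjusted p = 0.077).

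PLAGL1, a zinc finger growth suppressor whose overexpression is tied to transient neonatal diabetes, split the knockdown group. Control libraries held 3.19, 3.64 and 2.93 CPM of it, and knockdown replicates 1, 2 and 3 held 7.62, 1.07 and 1.19 CPM. The first knockdown library was above every control library and the others below every one. With all libraries it did not pass (0.03 ± 0.51, edgeR adjusted p = 0.97) and had no stable sign (-0.13 with total counts only, -0.56 with limma-voom, neither called), and without knockdown replicate 1 it was lower (-1.52, edgeR adjusted p = 1.8e-05). Over the 27 members with a mean of at least 1 CPM, the highest knockdown library was at least 1.5 times the lowest in 6 (NNAT, SLC22A18, PLAGL1, SNRPN, ATP10A and MAGEL2), against 14.7% of 15377 genes. In control this held for 2 of the 27, KCNQ1 and SNRPN, and for 8.65% of genes. That limit was chosen after the values were seen.

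IGF2R, the receptor that clears IGF2, was at 341.0, 346.3 and 333.4 CPM in control and 340.9, 330.8 and 334.1 CPM in knockdown and did not pass (-0.02 ± 0.04, edgeR adjusted p = 0.70), though it did with total counts only (-0.18, edgeR adjusted p = 0.0018). Its interval was narrow, with a standard error among the smallest of the members. INPP5F, a phosphoinositide phosphatase, was at 66.8 CPM in knockdown replicate 1 and at 87.4 to 99.1 CPM in the other 5 libraries (-0.07 ± 0.10, edgeR adjusted p = 0.59). ZNF597, a zinc finger gene, did not pass (-0.18 ± 0.15, edgeR adjusted p = 0.32), although its groups did not overlap.

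The members of the PEG3 domain of chromosome 19 held no counts. PEG3, a zinc finger protein gene, and ZIM2, which shares its start, had 0 counts in all 6 libraries, and so did the imprinted genes USP29, ZIM3 and MIMT1 of the same domain. ZNF264, an imprinted gene beyond ZIM3 picked after its values were seen, was expressed. It was at 29.5, 28.5 and 26.7 CPM in control and 22.5, 22.95 and 17.3 CPM in knockdown. Its log2 ratio was -0.43 ± 0.10 (edgeR adjusted p = 0.0027). With 3 counts taken as the floor, a count of 0 stands for less than about 0.142 to 0.162 CPM per library. That floor is a convention and not a hard bound. In GENCODE 29, 12.9% of the exon bases of PEG3 and 41.2% of those of ZIM2 are shared with another gene on the same strand, and the part of shared reads in these zeros was not tested. HYMAI, the noncoding RNA inside PLAGL1, was also at 0 throughout. DIRAS3, a growth-suppressing GTPase, had at most 5 counts in a library. The members too low to judge were thus MEG8, MEG9, H19, IGF2, SNURF, MKRN3, PEG3, ZIM2, HYMAI and DIRAS3.

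**Figure D4:**
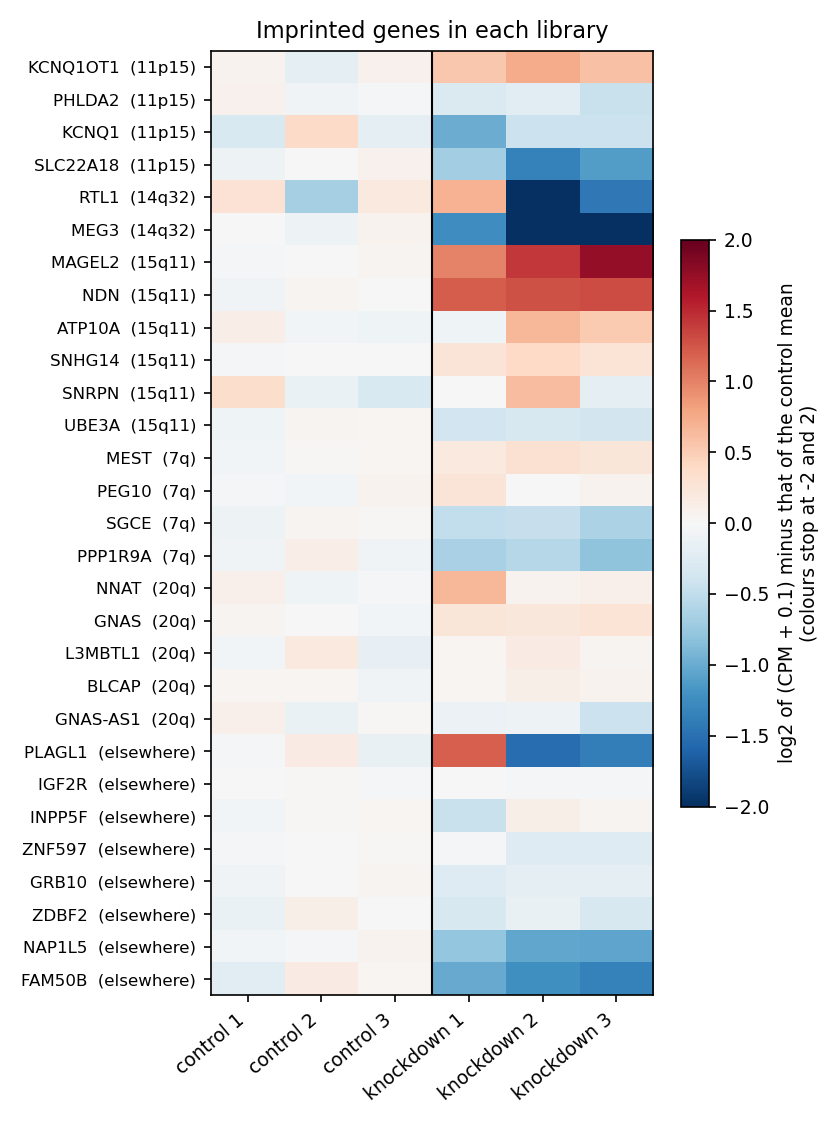
Difference of each library from the control mean on the scale of log2 of (CPM + 0.1), for the 29 tested members (rows) in 3 control and 3 knockdown libraries (columns), with colours stopped at -2 and 2. NDN and MAGEL2 were red in all knockdown libraries, NAP1L5 and FAM50B blue in all, and RTL1 and PLAGL1 were red in knockdown replicate 1 and blue in replicates 2 and 3.

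Levels between members can be set side by side only per length, and the deposited exon length differs from the exon bases of GENCODE 29 for some genes (632 against 23224 bases for MEG3). GNAS was highest in control on both lengths, at 379.6 CPM per kb of deposited exon and 52.8 CPM per kb of GENCODE 29 exon. SNHG14 (193.1 and 31.2), PEG10 (108.6 and 41.98), MEST (78.3 and 43.2) and NNAT (41.1 and 38.8) followed in both measures, though not in one order. At the low end of the tested members were KCNQ1OT1, at 0.058 CPM per kb on both, and RTL1, at 0.11 on both. MEG3 was at 1.34 CPM per kb of deposited exon, above PLAGL1, MAGEL2 and ZNF597, and at 0.036 CPM per kb of GENCODE 29 exon, below all other tested members.

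By the parental copy that is read in textbook accounts, 8 testable members are maternal, 16 paternal, 4 differ by isoform and 1, IGF2R, varies between people. ATP10A, whose imprinting also varies between people, was counted as maternal. Of the maternal ones 0 were higher and 6 lower (median log2 fold change -0.48), namely MEG3, KCNQ1, PHLDA2, SLC22A18, UBE3A and PPP1R9A. Of the paternal ones 6 were higher and 4 lower (median 0.10). All tested genes split as 26.1% higher and 25.6% lower. The split was made after values were seen and carries no test, and it moves with the settings given above: the calls of KCNQ1 and PHLDA2 on the maternal side and of NNAT, MEST and ZDBF2 on the paternal side were lost under some, and maternal ATP10A was called higher with RLE factors (0.41, edgeR adjusted p = 0.0462), with no low-count filter (0.41, 0.00869) and without knockdown replicate 1. Many of these genes are imprinted only in some tissues, UBE3A in neurons for one. The split covers the members only. Other imprinted genes were not sorted by parental copy, so whether the split reaches them was not tested. Of 40 tested, 10 were higher and 9 lower. At 11p15, beside the maternal members that fell, CDKN1C did not pass (-0.03) and OSBPL5 was higher (0.48).

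Of other genes reported as imprinted, 68 were rows of the table and 40 were testable, while 4 listed names matched no row. Among these 10 were higher and 9 lower (47.5%), again near the background of 51.7%, with a median log2 fold change of 0.01. The smallest adjusted p were those of HM13, a signal peptide peptidase (0.48 ± 0.05, edgeR adjusted p = 1.6e-06), and LIN28B, which blocks the let-7 microRNAs (-0.46 ± 0.05, 4.35e-06), followed by CD81 and NAP1L4 of 11p15. ZNF714, a zinc finger gene, was lower (-0.37), and the organic cation transporters SLC22A3 (1.11) and SLC22A2 (2.21), neighbours of IGF2R, were higher. PXDC1 (-0.95) and WT1 (-2.45), a factor of kidney development, were lower, and SNU13 (0.23), a spliceosome protein gene, was higher but lost its call with total counts only (0.07, edgeR adjusted p = 0.22). SLC22A2 and WT1 were at most at 1.12 CPM in any library.

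Genes that write, read or keep imprints were also listed. Of 35, 30 were testable, with 13 higher and 7 lower (66.7%, against 51.7% of all tested genes) and a median log2 fold change of 0.19, against -0.01. DNMT3B, which adds methylation to new sites, rose from 1294 to 1298 CPM in control to 2688 to 2767 CPM in knockdown (1.07 ± 0.04, edgeR adjusted p = 1.05e-11). The maintenance pair of DNMT1, the methyltransferase that copies marks at replication (0.34 ± 0.04, edgeR adjusted p = 1.1e-05), and UHRF1, which guides it (0.66 ± 0.07, 1.7e-06), were higher. DNMT3A did not pass (0.00 ± 0.06, edgeR adjusted p = 0.965), and stood at -0.16 (0.024) with total counts only. TRIM28, the corepressor that imprint-keeping zinc finger proteins recruit, was higher (0.44 ± 0.04, edgeR adjusted p = 4.2e-07).

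ZNF445, one of these zinc finger proteins, fell from 61.2, 66.2 and 65.9 CPM to 50.8, 47.8 and 45.7 CPM (-0.42 ± 0.07, edgeR adjusted p = 6.8e-05). The other, ZFP57, was near its detection limit at 0.28 to 0.92 CPM and did not pass (0.54 ± 0.48, edgeR adjusted p = 0.37). DPPA3, which shields imprints after fertilization in mouse, was at 0.14, 0.15 and 0.28 CPM in control and 0.75, 2.75 and 2.11 CPM in knockdown (3.24 ± 0.54, edgeR adjusted p = 0.00013). TDG (0.65), EHMT2 (0.50), CBX3 (0.40) and YY1 (0.30) were higher and SMCHD1 (-0.54) was lower. With total counts only DNMT1 stood at 0.18, TRIM28 at 0.28, CBX3 at 0.24 and YY1 at 0.15, all still called. Whether any of these levels goes with methylation at the imprinting control regions was not measured.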

How the data were processed

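Poly-A RNA libraries of H7 cells (3 control, 3 SAMD4A knockdown) were made with a stranded mRNA kit and read as 150 bp pairs, per the labels' protocols. The deposited table holds raw counts per Ensembl gene, with locations on GRCh38.p13 per the file headers. HISAT2, HTSeq and GRCh38 are named in the submitters' processing notes, with versions, strand setting and the handling of overlapping genes not given in the sources used here. Exon length is a deposited annotation column, not a measurement.

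Counts were tested over the whole table with R 4.3.3 and edgeR 4.0.16: filterByExpr left 17258 of 60664 genes, libraries were scaled with TMM factors, and the two-sided quasi-likelihood test compared the groups, with Benjamini-Hochberg adjustment over all tested genes and a threshold of 0.05. The standard error is the fold change divided by the square root of F. The coefficient of variation between replicates was 7.47%, and genes with few counts have larger counting error. Replicate libraries differed by more than sampling noise (chi-square per degree of freedom 2.77 or more). A member that failed the filter was called too low to judge. Alternatives were DESeq2 1.42.0, voom in limma 3.58.1, leaving out each library in turn, other scaling factors and filters, and a block on the replicate number. Scripts were tested on simulated data. The named genes were all members, up to 10 called genes with the smallest adjusted p from each further list, DLK1, CDKN1C, SAMD4A and 7 imprint regulators; others are marked as picked after their values were seen, and DIO3, single marker genes and the silent genes of the PEG3 domain were also picked so. The 5 genes with the highest Pearson r to MEG3 were named by that rule. The members and lists were chosen with earlier results of these data known. Sequences are from RefSeq (GRCh38.p14), and exon overlaps from GENCODE 29, an annotation that may differ from the one used for counting.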

Additional observations from a re-analysis of the deposited data

How the results depend on the processing

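Of the 18 member calls, 14 to 17 were shared with the main result under each alternative run, and the total ran from 14 to 19. With total counts only 4 members were higher in place of 7, and the calls of MEST, GNAS and NNAT were lost; that scaling moves the median of all genes from -0.01 to -0.17. PLAGL1 turned from 0.03 to -1.52 without knockdown replicate 1, and ran from -1.52 to 0.46 over the libraries left out, and DNMT3A from 0.00 to -0.16 with total counts only. DIO3, recomputed by choice after its values were seen, turned from 0.25 to -2.26 without knockdown replicate 1, with a range of -2.26 to 0.75 over the libraries left out. DLK1 stood at -0.91 uncalled, and passed with limma-voom (-2.93, limma adjusted p = 0.00255), with no low-count filter (-0.90, edgeR adjusted p = 2.0e-25), under the replicate block and without knockdown replicate 1; the cause was not tested. PEG10 and ATP10A passed with no low-count filter (edgeR adjusted p = 0.048 and 0.0087). Same-numbered libraries of the groups did not deviate together (correlations of -0.02, -0.01 and -0.04). No shared deviation was thus seen, which does not settle whether the numbers pair them. The replicate block gave 17 member calls, with PHLDA2 lost (-0.32, edgeR adjusted p = 0.072), and 8434 calls over all genes against 8926, a count recomputed by choice after the data were seen. The 10 members under the filter cannot be judged at this depth: with no filter, none of the 7 with any count passed (lowest edgeR adjusted p = 0.32).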
